A study of Mus musculus with 26 samples.

Results

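The Hes and Hey effectors of Notch signalling, together with the feedback regulator Nrarp, were followed through tumours that had lost Notch receptors or their DNA-binding partner. The 7 genes were Hes1, Hes5, Hes6, Hey1, Hey2, Heyl and Nrarp, taken as the rows of the gene count table whose Entrez identifier belongs to those mouse symbols. All 7 were present among the 24454 genes of the table and had enough counts to be tested, as did 15617 genes in all. The RNA came from mouse gliomas, from cells kept for their GFP, which a Cre-dependent reporter at the Rosa locus provides. The tumours were labelled Rbpj-/- (n = 4), Notch1-/-Notch2-/- (n = 5), Notch1-/- (n = 6), Notch2-/- (n = 5) and control (n = 6). PDGF expression and loss of the tumour suppressor Trp53 were common to every group, so control tumours lacked Trp53 too but kept Notch1, Notch2 and Rbpj. The source of Cre, the strain and the ages of the mice are not stated in the labels. The labels do not say that replicates came from separate mice. Xist marks female cells, and Ddx3y lies on the Y chromosome. Rbpj-/- replicate 2, Notch1-/-Notch2-/- replicates 1 and 2 and control replicate 1 held Xist without Ddx3y. All other libraries held Ddx3y, every Notch1-/- library among them. Notch2-/- replicates 3 and 4 and control replicate 6 held Ddx3y together with Xist, the latter at 71.3, 1917 and 412 CPM. The Rbpj-/-, Notch1-/-Notch2-/- and control groups thus each came from more than 1 mouse, with the number unknown. The Notch2-/- group held markers of both sexes too, but within single libraries, and how these arose is not stated in the labels. A p-value here reflects only how far these libraries spread, which may in part be technical.

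Notch receptors are cleaved when they meet a ligand on a neighbouring cell. The freed intracellular part enters the nucleus, where it joins the DNA-binding protein Rbpj and a Mastermind co-activator and switches on genes of the Hes and Hey families. Without the intracellular part, Rbpj binds co-repressors, so that the same protein can hold its targets down. Hes1 and Hes5 are repressors that keep neural progenitors undifferentiated by silencing proneural genes, Hey1, Hey2 and Heyl are related repressors best known from heart and vessels, Hes6 is known to oppose Hes1, and Nrarp binds the active Notch complex and dampens it.

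Promoter windows were available for Hes5, Hes6, Hey2 and Nrarp, with none for Hes1, Hey1 and Heyl. The letters GTGGGAA, which contain the core TGGGAA of the Rbpj site, were searched on both strands in the 250 bases before each start site. They are shown here because Rbpj is the protein through which all these receptors reach their targets. Hes5 held 2 matches, with their first bases 226 and 83 bases before the start site, and Hey2 held 1, at 207 bases. The Hes5 window begins at base 154960673 of chromosome 4, inside the annotated gene interval, because the start site of this table is an internal one. Of 32851 promoter windows of the same length, 5.42% held at least 1 match and 0.161% held 2 or more. The Hey2 match also fitted the longer CGTGGGAA, found in 0.636% of windows. The Hes6 windows and the Nrarp window held no TGGGAA, a core found in 21.6% of windows. Nrarp held the E-box CACGTG, a motif of the kind that basic helix-loop-helix factors bind, which 6.02% of windows held. Each sequence below is from RefSeq on GRCm38.p6, read 5′ to 3′ on the strand of its gene, with GTGGGAA or its reverse complement TTCCCAC, or for Nrarp CACGTG, in capitals. A match describes letters and does not show a bound site.
Hes5, chr4:154960687-154960713, plus strand: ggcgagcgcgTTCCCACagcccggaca
Hes5, chr4:154960830-154960856, plus strand: gccgccgagtGTGGGAAcggccgcggc
Hey2, chr10:30842974-30843000, minus strand: cgcggtggcaTTCCCACgcctctgcca
Nrarp, chr2:25180640-25180665, plus strand: gccccgccccCACGTGggcaccaccc

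Total counts per library were 30868828 to 44302365 in Rbpj-/-, 35046873 to 44376594 in Notch1-/-Notch2-/-, 31593287 to 42378306 in Notch1-/-, 37786708 to 48103535 in Notch2-/- and 37613009 to 46703709 in control. Over the 26 libraries, raw counts of Hes5 were 11 to 391 and those of Heyl 22 to 683, the least deeply covered of the 7, while Hey1 had 403 to 1977. Levels are given as CPM, counts scaled to a common library total, and a gene is said to rise or fall where edgeR's quasi-likelihood test gave a Benjamini-Hochberg adjusted p under 0.05 over all 15617 genes. The lost genes themselves gave a mixed check of the labels. Rbpj averaged 37.8 ± 13.5 CPM in Rbpj-/- and 61.2 ± 6.43 CPM in control (SD, n = 4 and 6), a log2 difference of -0.70 ± 0.20 (SE, edgeR adjusted p = 0.0222, and 0.0735 without Rbpj-/- replicate 1 or 0.0664 without replicate 2). The Rbpj call was lost as well with the microglia and macrophage score (-0.39, adjusted p = 0.5497), with the endothelial score (-0.73, 0.263) and with only these 2 genotypes in the fit (-0.73, 0.0652). Notch2 fell in Notch2-/-, to 7.35 ± 0.950 CPM against 12.7 ± 2.73 CPM in control, a call that left the threshold without Notch2-/- replicate 1 (adjusted p = 0.0790), Notch2-/- replicate 5 (0.0717) or control replicate 5 (0.0564). It was also lost with the microglia and macrophage score (-0.86, 0.0514), with the endothelial score (-0.74, 0.0506) and without the 3 libraries that hold both Xist and Ddx3y (-0.86, 0.1205). Notch2 was 11.2 ± 1.32 CPM in Notch1-/-Notch2-/-, where it did not pass against control (adjusted p = 0.377). There it stood above its level in Notch2-/- (0.61 ± 0.16, edgeR adjusted p = 0.0115). That call was lost with the microglia and macrophage score (0.47, 0.171) and the endothelial score (0.80, 0.0747). It was lost as well without the 3 libraries that hold both Xist and Ddx3y (0.65, 0.0512). Notch1 was 144 ± 45.4 CPM in Notch1-/- and 109 ± 30.8 CPM in control, not lower. In Notch1-/-Notch2-/- Notch1 was 139 ± 59.5 CPM, not lower either (0.36 ± 0.25, edgeR adjusted p = 0.270). In Rbpj-/- Notch1 rose against control, to 195 ± 59.0 CPM (0.84 ± 0.26, edgeR adjusted p = 0.0340). That call stayed in 19 of 26 fits with 1 library left out and under 5 of 12 alternatives. Counts over a whole gene cannot show the loss of some of its exons, and the labels do not say which parts were deleted, so the genotype names below are the labels of the libraries.

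The sorted cells carried high levels of oligodendrocyte precursor genes, whose 15 markers summed to 10870 to 25083 CPM across all libraries. Markers of several other cell types moved with genotype. Of 20 microglia and macrophage markers, 17 fell in Rbpj-/-, 18 in Notch1-/-Notch2-/-, 19 in Notch1-/- and 0 in Notch2-/-, each against control. Their summed level was 151 to 269 CPM in Rbpj-/-, 56.2 to 187 CPM in Notch1-/-Notch2-/-, 65.1 to 309 CPM in Notch1-/-, 334 to 766 CPM in Notch2-/- and 400 to 1673 CPM in control. Of 15 endothelial markers, 8, 12, 12 and 0 fell in the same order, and their sums were 51.4 to 108, 48.7 to 100.5, 37.6 to 91.3, 76.6 to 177 and 116 to 298 CPM in the same order of groups. Of 20 astrocyte markers, 9, 14, 12 and 0 fell, with 1 rising in Notch1-/-. Of 15 mature oligodendrocyte markers 10, 13, 11 and 0 fell, and of 15 mural and fibroblast markers 3, 3, 5 and 0. Of 15 neuron markers 0, 2, 0 and 0 fell, with 1 rising in Notch1-/-Notch2-/- and 2 in Notch1-/-. Beside these counts, 7.25%, 18.8%, 13.5% and 0.166% of all genes tested fell in the same order. The mural and fibroblast count in Notch1-/-Notch2-/- was near the share there, and the neuron counts were not above it in any group. No marker of these lists was at 0 in every library of a group. In bulk RNA, fewer cells of a type and less RNA per cell cannot be told apart, and the part of other cells in the results below was tested only as far as the covariate fits given beside them. Notch1-/- replicate 2 and Rbpj-/- replicate 1 lay farthest from their groups over expressed genes, and calls that change without them are given both ways.

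**Figure D1:**
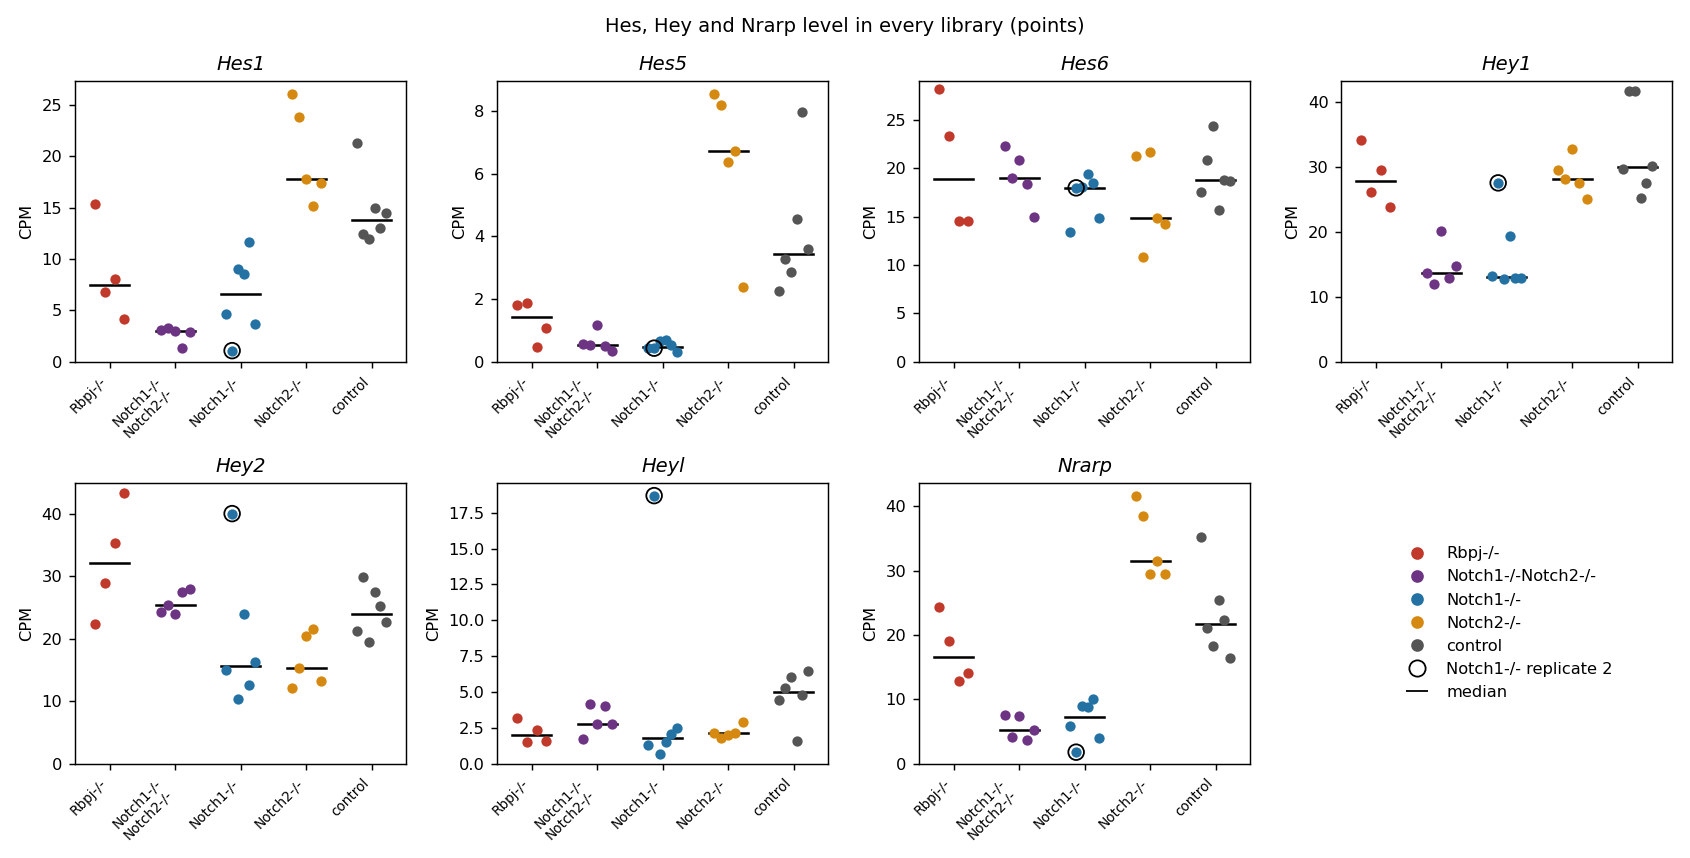
Level of each of the 7 genes (CPM, linear axis from 0) in every library of Rbpj-/-, Notch1-/-Notch2-/-, Notch1-/-, Notch2-/- and control tumours, with 1 point per library, a line at the group median and a ring around Notch1-/- replicate 2. Hes1, Hes5, Hey1 and Nrarp were low in both groups without Notch1, and the ringed library held the lowest Hes1 and Nrarp and the highest Hey1, Hey2 and Heyl of its group.

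Hes1 (Entrez 15205, chr16:30065357-30067796 on GRCm38.p6, as for all positions here) is a Notch effector of progenitor cells. It stood at 15.4, 6.81, 8.05 and 4.15 CPM in the Rbpj-/- libraries and at 3.07, 3.26, 2.96, 1.39 and 2.87 CPM in the Notch1-/-Notch2-/- libraries. Notch1-/- libraries had 1.09 CPM at the lowest, a median of 6.59 and 11.7 at the highest, Notch2-/- libraries 26.1, 23.8, 17.8, 15.1 and 17.4 CPM, and control libraries 11.9 at the lowest, a median of 13.8 and 21.3 at the highest. Every library without Notch1 lay below every control library, whereas Rbpj-/- replicate 1 lay inside the control range. Of all genes tested, 11.1% lay wholly below control in Notch1-/-Notch2-/-, 3.5% in Notch1-/- and 4.96% in Rbpj-/-. In the libraries labelled Notch1-/-Notch2-/- the group mean was 2.71 ± 0.751 CPM, against 14.7 ± 3.44 CPM in control, a 5.41-fold lower level as fitted (log2 difference -2.44 ± 0.42 SE, edgeR adjusted p = 0.000169). In Notch1-/- the fall was 2.28-fold (-1.19 ± 0.37, adjusted p = 0.0229), and it did not pass without Notch1-/- replicate 1 (adjusted p = 0.0524), Notch1-/- replicate 6 (0.0554) or control replicate 1 (0.0518). In Rbpj-/- the difference was -0.77 ± 0.42 (adjusted p = 0.213), and -1.21 (adjusted p = 0.0825) without Rbpj-/- replicate 1, while limma voom with quality weights called it (-1.35, adjusted p = 0.00998). In Notch2-/- it was 0.45 ± 0.38 (edgeR adjusted p = 0.574). In order of mean level the groups ran Notch1-/-Notch2-/-, Notch1-/-, Rbpj-/-, control and Notch2-/-, and no pair of neighbours in that order passed the test.

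Hes5 (Entrez 15208, chr4:154960626-154962372), the other main effector of neural stem cells, was low in the 3 groups that lacked Rbpj or Notch1. Rbpj-/- libraries had 1.80, 1.87, 0.489 and 1.09 CPM, Notch1-/-Notch2-/- libraries 0.568, 0.530, 1.19, 0.519 and 0.333 CPM, and Notch1-/- libraries 0.312 at the lowest, a median of 0.483 and 0.705 at the highest. Notch2-/- libraries had 8.54, 8.18, 6.36, 6.73 and 2.38 CPM, and control libraries 2.27 at the lowest, a median of 3.43 and 7.97 at the highest. All 15 libraries lacking Rbpj or Notch1 were below all 11 libraries that kept both. The shares of all genes wholly below control are given above for Hes1. Wholly below Notch2-/- were 3.19% of all genes in Rbpj-/-, 8.26% in Notch1-/-Notch2-/- and 2.4% in Notch1-/-. The fall against control was 3.11-fold in Rbpj-/- (-1.64 ± 0.43, edgeR adjusted p = 0.0148), 6.47-fold in Notch1-/-Notch2-/- (-2.69 ± 0.41, adjusted p = 6.91e-05) and 7.93-fold in Notch1-/- (-2.99 ± 0.39, adjusted p = 5.85e-05), while Notch2-/- stood 0.65 ± 0.37 above control without passing (adjusted p = 0.407). Hes5 was the only 1 of the 7 to fall in Rbpj-/- with edgeR, whereas limma voom with quality weights also called Hes1 and Heyl (-1.37, adjusted p = 0.0282). From lowest to highest mean the order was Notch1-/-, Notch1-/-Notch2-/-, Rbpj-/-, control and Notch2-/-, and the step between Rbpj-/- and control was the only step between neighbours to pass. A gene annotated on the opposite strand, Gm20421, overlaps Hes5, and since the strand setting of the counting is unknown here, sense and antisense reads cannot be told apart.

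Nrarp (Entrez 67122, chr2:25180758-25183339), the feedback inhibitor, is itself a target of the complex it restrains. Its levels were 24.3, 19.0, 12.9 and 14.0 CPM in Rbpj-/-, 7.55, 4.16, 7.35, 3.74 and 5.23 CPM in Notch1-/-Notch2-/-, and 1.78 at the lowest, a median of 7.29 and 10.1 at the highest in Notch1-/-. Notch2-/- libraries had 41.7, 38.5, 29.5, 31.6 and 29.4 CPM, and control libraries 16.4 at the lowest, a median of 21.7 and 35.2 at the highest. Both groups without Notch1 lay wholly below both the Rbpj-/- group and the control group, and the Rbpj-/- group overlapped the controls. Of all genes, 1.93% were wholly higher in Rbpj-/- than in Notch1-/-Notch2-/-, and 0.576% were wholly higher than in Notch1-/-. Nrarp fell 4.12-fold in Notch1-/-Notch2-/- (-2.04 ± 0.33, edgeR adjusted p = 9.70e-05) and 3.53-fold in Notch1-/- (-1.82 ± 0.30, adjusted p = 0.000402). The differences from control were -0.40 ± 0.33 in Rbpj-/- (adjusted p = 0.427) and 0.56 ± 0.31 in Notch2-/- (adjusted p = 0.391). Mean levels increased in the order Notch1-/-Notch2-/-, Notch1-/-, Rbpj-/-, control, Notch2-/-, with no neighbouring pair past the threshold. Gm38287, annotated on the opposite strand, overlaps Nrarp, with the same limit as for Hes5.

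Hey1 (Entrez 15213, chr3:8663359-8667038), a Hey-family repressor of vessels and of neural precursors, fell in both groups without Notch1. Rbpj-/- libraries had 34.01, 26.1, 29.5 and 23.7 CPM, and Notch1-/-Notch2-/- libraries 13.7, 12.0, 20.1, 13.0 and 14.7 CPM. Notch1-/- libraries had 12.7 at the lowest, a median of 13.1 and 27.5 at the highest, the highest being replicate 2, while Notch2-/- libraries had 29.5, 28.1, 32.7, 27.5 and 25.1 CPM and controls 25.2 at the lowest, a median of 29.9 and 41.7 at the highest. Apart from Notch1-/- replicate 2, the libraries without Notch1 were below every library of the other 3 groups. The fall was 2.22-fold in Notch1-/-Notch2-/- (-1.15 ± 0.20, edgeR adjusted p = 0.000180) and 1.99-fold in Notch1-/- (-0.99 ± 0.19, adjusted p = 0.000990). Rbpj-/- differed from control by -0.20 ± 0.21 (adjusted p = 0.522) and Notch2-/- by -0.19 ± 0.19 (adjusted p = 0.635). From low to high the order of means was Notch1-/-Notch2-/-, Notch1-/-, Rbpj-/-, Notch2-/-, control, and no neighbouring pair passed.

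Hes6, Hey2 and Heyl passed in none of the 11 comparisons with all libraries in the edgeR fit. Hes6 (Entrez 55927, chr1:91411483-91414038), which opposes Hes1 and is not held to depend on Notch, averaged 20.1 ± 6.76 CPM in Rbpj-/-, 19.1 ± 2.77 in Notch1-/-Notch2-/-, 17.0 ± 2.35 in Notch1-/-, 16.6 ± 4.72 in Notch2-/- and 19.3 ± 2.98 in control (SD), with overlapping ranges in every pair of groups. Its difference from control had 95% intervals, on a normal approximation from the SE, of -0.33 to 0.45 in Rbpj-/-, -0.39 to 0.35 in Notch1-/-Notch2-/-, -0.54 to 0.17 in Notch1-/- and -0.59 to 0.15 in Notch2-/- on the log2 scale. Genotype accounted for 12.9% of the variance of its log2 CPM over libraries, against 85.6% for Hes5, 81.6% for Nrarp, 74.8% for Hey1 and 71.3% for Hes1.

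Hey2 (Entrez 15214, chr10:30832359-30842783), a Hey-family repressor of heart and arteries, had its highest group mean in Rbpj-/- (32.5 ± 8.96 CPM, against 24.3 ± 3.94 CPM in control), a difference of 0.42 ± 0.27 that did not pass (edgeR adjusted p = 0.298). Rbpj-/- libraries had 22.4, 28.9, 35.3 and 43.3 CPM, Notch1-/-Notch2-/- libraries 24.3, 25.4, 24.0, 27.6 and 28.02 CPM, and Notch1-/- libraries 10.4 at the lowest, a median of 15.7 and 40.0 at the highest. Notch2-/- libraries had 12.2, 15.3, 20.4, 21.6 and 13.2 CPM and controls 19.5 at the lowest, a median of 24.0 and 29.8 at the highest. The Rbpj-/- group and the Notch1-/-Notch2-/- group each lay above every Notch2-/- library, and no group was separate from control. Of all genes, 1.42% lay wholly above Notch2-/- in Rbpj-/- and 6.81% in Notch1-/-Notch2-/-. Against Notch2-/- the log2 difference was 0.97 ± 0.28 for Rbpj-/- (edgeR adjusted p = 0.0764) and 0.64 ± 0.27 for Notch1-/-Notch2-/- (adjusted p = 0.0976). Both passed when Notch1-/- replicate 2, which belongs to neither comparison but enters the shared spread, was left out (adjusted p = 0.0170 and 0.0256). Without that library Hey2 also fell in Notch1-/- against control (-0.62, adjusted p = 0.0222, against -0.30 and 0.355 with it).

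Heyl (Entrez 56198, chr4:123233556-123249870), a Hey-family repressor known from vascular smooth muscle, changed its call and sign in Notch1-/- with single libraries. Rbpj-/- libraries had 3.18, 1.51, 2.37 and 1.58 CPM, Notch1-/-Notch2-/- libraries 1.73, 4.16, 2.78, 3.99 and 2.79 CPM, and Notch2-/- libraries 2.12, 1.77, 2.00, 2.16 and 2.92 CPM. Notch1-/- libraries had 0.696 at the lowest, a median of 1.78 and 18.7 at the highest, and controls 1.58 at the lowest, a median of 5.01 and 6.43 at the highest. All of these groups overlapped control, 1 low control library and 1 very high Notch1-/- library lying far from the rest. Against control the log2 difference was -1.14 ± 0.64 in Rbpj-/- (edgeR adjusted p = 0.227), -1.11 ± 0.59 in Notch2-/- (adjusted p = 0.375) and -0.10 ± 0.55 in Notch1-/- (adjusted p = 0.912). Without Notch1-/- replicate 2 the last of these became -1.55 (adjusted p = 0.00190) and the first passed as well (-1.13, adjusted p = 0.0300). Leaving out any other single Notch1-/- library, or control replicate 6, turned the sign in Notch1-/- instead, to between 0.01 and 0.13, without a call.

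**Figure D2:**
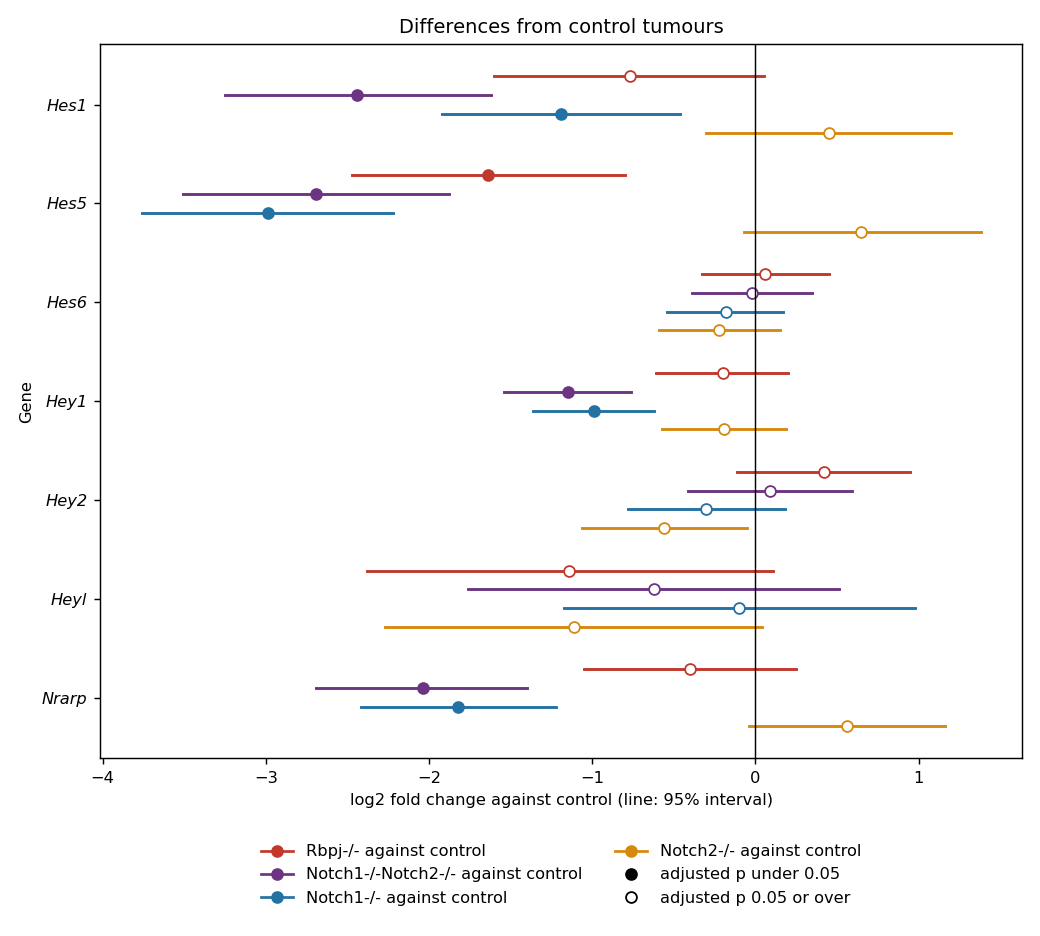
Log2 fold change of each gene against control for Rbpj-/-, Notch1-/-Notch2-/-, Notch1-/- and Notch2-/- (x axis, lines are 95% intervals), with filled points where the adjusted p was under 0.05. Hes1, Hes5, Hey1 and Nrarp have filled points left of 0 in both groups without Notch1, Hes5 alone has one in Rbpj-/-, and Notch2-/- has none.

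Counted over the 7 genes, 1 fell in Rbpj-/- against control, with 15.2% of all genes tested called in that comparison. Against the same control libraries, 4 fell in Notch1-/-Notch2-/-, where 37.1% of all genes were called, 4 fell in Notch1-/-, where 26.7% were called, and 0 of the 7 passed in Notch2-/-, where 0.295% were called. In these comparisons none of the 7 rose. These shares cover both directions. Of all genes, 7.25% fell in Rbpj-/-, 18.8% in Notch1-/-Notch2-/-, 13.5% in Notch1-/- and 0.166% in Notch2-/-. The 4 of 7 in each group without Notch1 lay above the share there. Many genes were called in the 3 groups that lacked Rbpj or Notch1, and the 7 were not tested as a set. The sizes above therefore carry the description. At an unadjusted p under 0.05, edgeR counted 1, 4, 4 and 1 of the 7 in the same order, beside 31.3%, 46.8%, 41.1% and 14.8% of all genes. For Notch2-/- DESeq2 also called 0, and limma voom called 1, Hey2 (-0.74, adjusted p = 0.0242). The median log2 difference of the 7 was -0.40 in Rbpj-/-, -1.15 in Notch1-/-Notch2-/-, -0.99 in Notch1-/- and -0.19 in Notch2-/-, beside 0.069, 0.006, 0.035 and 0.015 over all genes tested. The 4 comparisons share their control libraries and are not independent of each other.

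Markers of other cell types fell in the same 3 groups, so the fits were repeated with a marker score as a covariate. The scores used were microglia and macrophage, endothelial, and mural and fibroblast. No fit was made with an astrocyte or mature oligodendrocyte score. With the microglia and macrophage score, Hes1, Hes5 and Nrarp still fell in Notch1-/-Notch2-/- and Hey1 did not (-0.89, edgeR adjusted p = 0.142). With the endothelial score Hes1 missed there (-2.28, adjusted p = 0.0628) and the other 3 passed. In Notch1-/- the microglia and macrophage score left 2 of the 4 calls, on Hes5 and Nrarp, and the endothelial score left 1, on Hes5, with Nrarp at -1.79 (adjusted p = 0.608). Hes1 and Hey1 lost their call in Notch1-/- with either score, at -2.48 (adjusted p = 0.158) and -1.03 (0.875) for Hes1 and -0.75 (0.288) and -1.33 (0.503) for Hey1, and Hes1 also with the mural and fibroblast score (-0.87, adjusted p = 0.243). Hes5 in Rbpj-/- became -2.14 (adjusted p = 0.128) with the microglia and macrophage score and -2.08 (adjusted p = 0.147) with the endothelial score. These scores follow genotype closely, with 78.8% and 78.5% of their variance lying between genotypes, and with the endothelial score 18 genes in all were called in Rbpj-/-, 217 in Notch1-/-Notch2-/- and 7 in Notch1-/-.

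Rbpj loss was then set against receptor loss directly. Against Notch1-/-Notch2-/-, 2 of the 7 genes rose and 0 fell in Rbpj-/-, in a comparison in which 0.794% of all genes were called. Nrarp was 3.13-fold higher in Rbpj-/- (17.6 ± 5.22 CPM in Rbpj-/- and 5.61 ± 1.77 CPM in Notch1-/-Notch2-/-, log2 difference 1.65 ± 0.35, edgeR adjusted p = 0.0241). Hey1 was 1.93-fold higher (28.3 ± 4.47 CPM in Rbpj-/- and 14.7 ± 3.17 CPM in Notch1-/-Notch2-/-, 0.95 ± 0.21, adjusted p = 0.0354). Every Rbpj-/- library exceeded every Notch1-/-Notch2-/- library for both genes, and likewise for Hes1, where 1.93% of all genes were higher without overlap. The Hes1 difference of 1.66 ± 0.43 did not pass in the main edgeR fit (adjusted p = 0.0730). It passed with edgeR without Notch1-/- replicate 2 (1.65, adjusted p = 0.0153) and with the microglia and macrophage score (1.92, 0.0337). DESeq2 called it too (1.64, adjusted p = 0.0103). Hes5 differed by 1.06 ± 0.43 with overlapping ranges (adjusted p = 0.314). Neither call was firm. That on Nrarp was lost without Rbpj-/- replicate 1 (adjusted p = 0.0916) or 2 (0.0688) and without Notch1-/-Notch2-/- replicate 2 (0.0758), 4 (0.0803) or 5 (0.0638), with the log2 difference staying between 1.45 and 1.78 whichever library was left out. That on Hey1 was lost without Rbpj-/- replicate 1 (0.134), 2 (0.0702) or 3 (0.0617) and without Notch1-/-Notch2-/- replicate 1 (0.0750), 2 (0.107), 4 (0.0999) or 5 (0.0748), with the difference between 0.85 and 1.09. No marker of the microglia, endothelial, mural, astrocyte, precursor or mature oligodendrocyte lists passed between Rbpj-/- and Notch1-/-Notch2-/-, but all of these lists had positive medians there, as Nrarp and Hey1 did. The median log2 differences were 0.7 for microglia, 0.7 for endothelial, 1.06 for mural, 0.43 for astrocyte, 0.29 for precursor and 0.91 for mature oligodendrocyte markers, beside 0.056 over all genes. Scores were fitted only for microglia and macrophage, endothelial, and mural and fibroblast markers. The part of astrocyte, precursor and mature oligodendrocyte cells in these differences was not tested. Nrarp kept its call with each score fitted, and Hey1 lost it with the microglia and macrophage score (0.88, edgeR adjusted p = 0.0724). With only these 2 genotypes in the fit, no gene of the 7 passed, Nrarp standing at 1.62 (adjusted p = 0.0580) and Hey1 at 0.92 (adjusted p = 0.104).

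**Figure D3:**
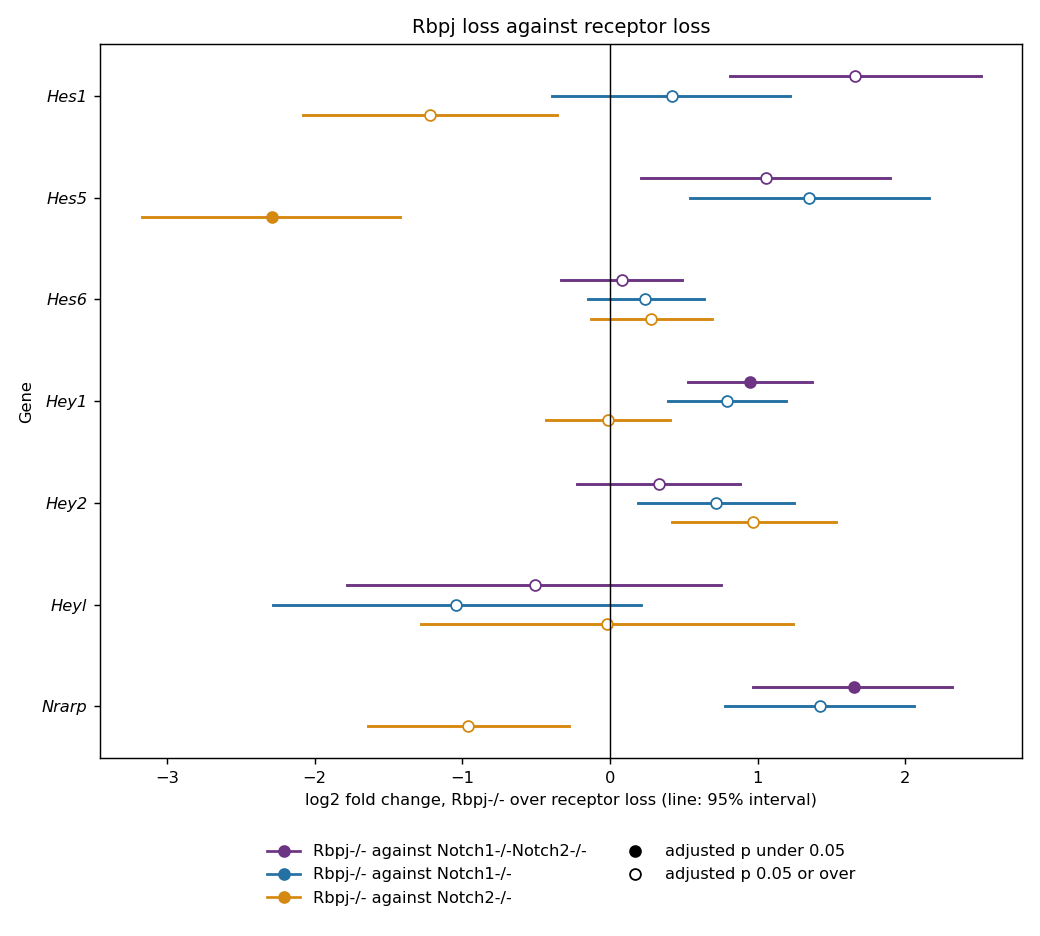
Log2 fold change of each gene in Rbpj-/- over Notch1-/-Notch2-/-, Notch1-/- and Notch2-/- tumours (x axis, lines are 95% intervals), with filled points where the adjusted p was under 0.05. Hey1 and Nrarp have filled points right of 0 against Notch1-/-Notch2-/-, and Hes5 has one left of 0 against Notch2-/-.

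For Rbpj-/- set against Notch1-/-, 0 of the 7 genes passed in Rbpj-/- with edgeR, in a comparison in which 0.263% of all genes were called, and 4 had an unadjusted p under 0.05, as 8.98% of all genes did. Those 4 were Hes5, Hey1, Hey2 and Nrarp. Hes5 stood 1.35 ± 0.41 higher in Rbpj-/- with overlapping ranges (edgeR adjusted p = 0.273). Nrarp stood 1.42 ± 0.33 higher in Rbpj-/- with no overlap of the groups (adjusted p = 0.0668), passing without Notch1-/- replicate 5 (1.59, adjusted p = 0.0291). Hey1 stood 0.79 ± 0.20 higher (adjusted p = 0.142) and passed without Notch1-/- replicate 2 (0.98, adjusted p = 0.0122), as did Hey2 (1.04, adjusted p = 0.0428). DESeq2 called Hey1 and Nrarp, and limma voom Hey1 and Hey2. Hes1 differed by 0.42 ± 0.41 (adjusted p = 0.7096), and without Rbpj-/- replicate 1 by -0.02. Against Notch2-/-, 1 of the 7 fell in Rbpj-/-, Hes5 (-2.29 ± 0.45, adjusted p = 0.00870), where 1.7% of all genes were called, a call lost with only these 2 genotypes in the fit (adjusted p = 0.0698) and without the 3 libraries that hold both Xist and Ddx3y, which are Notch2-/- replicates 3 and 4 and control replicate 6 (0.0560). Hes1 stood at -1.22 ± 0.44 (adjusted p = 0.154) and Nrarp at -0.96 ± 0.35 (adjusted p = 0.157), while Hey1 stood at -0.01 ± 0.21. In that comparison limma voom also called Hes1 (-1.71, adjusted p = 0.00648), Nrarp (-1.05, 0.0173) and Hey2 (1.29, 0.00142). Hey2 was called as well by DESeq2 (0.97, adjusted p = 0.0273) and by edgeR with the microglia and macrophage score (1.28, 0.0316).

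Within the Rbpj-/- group the 4 libraries differed in how much Rbpj transcript they held. Replicate 1 had the least Rbpj, 20.4 CPM, and the most Hes1, Nrarp and Hey1 of the group, at 15.4, 24.3 and 34.01 CPM. Replicate 4 had the most Rbpj, 52.0 CPM, close to the lowest control library at 52.9 CPM, and the least Hes1 and Hey1, at 4.15 and 23.7 CPM. Replicates 2 and 3 had 35.0 and 43.7 CPM of Rbpj. Hey2 was lowest in replicate 1, at 22.4 CPM, and highest in replicate 4, at 43.3 CPM. Nrarp was lowest in replicate 3, at 12.9 CPM. Hes5 did not follow this order, with its lowest level in replicate 3, at 0.489 CPM, and its highest in replicate 2, at 1.87 CPM. With 4 libraries these are single values, for which no test was made.

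**Figure D4:**
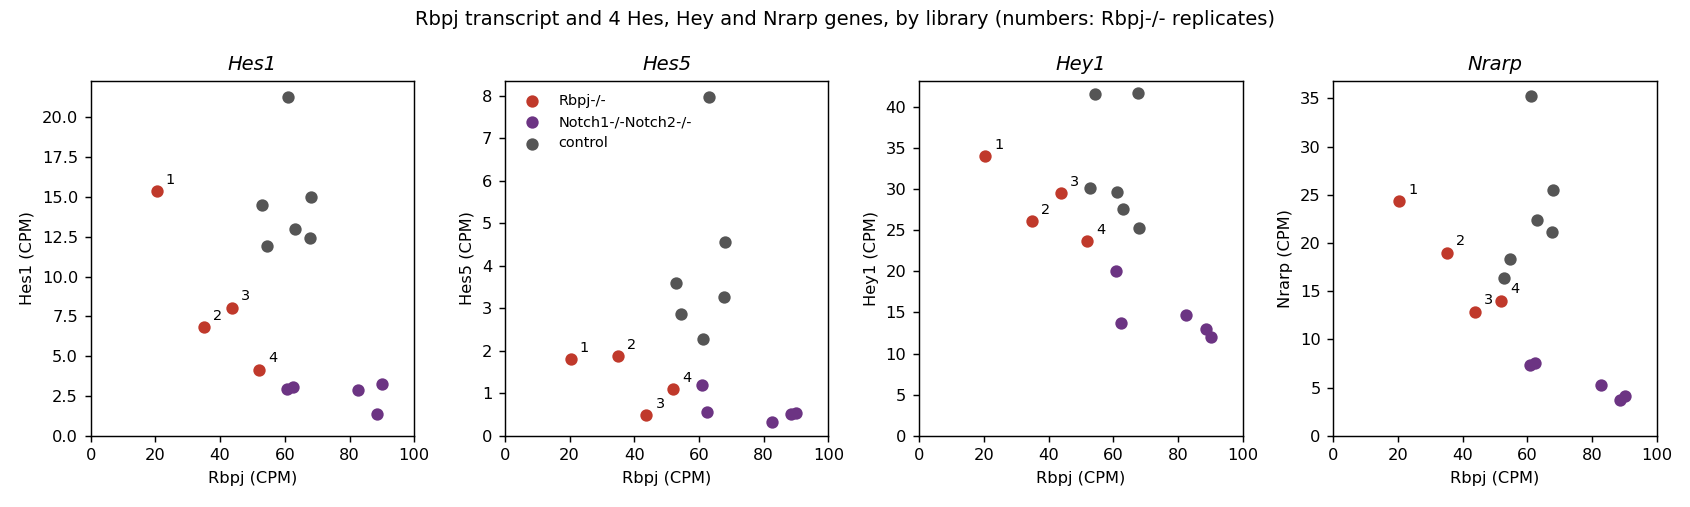
Rbpj level (x axis, CPM) and level of Hes1, Hes5, Hey1 or Nrarp (y axes, CPM) in the libraries of Rbpj-/-, Notch1-/-Notch2-/- and control tumours, with the Rbpj-/- replicates numbered. Rbpj-/- replicate 1 has the least Rbpj and lies at the level of the controls for Hes1, Hey1 and Nrarp, and below them for Hes5. Replicates 2 and 3 also lie within the control range for Hey1, and replicate 2 for Nrarp.

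The receptors were next compared with each other. Against Notch2-/-, 4 of the 7 genes fell in Notch1-/-Notch2-/-, where 17.4% of all genes were called, and 4 fell in Notch1-/-, where 3.09% were called. They were Hes1, Hes5, Hey1 and Nrarp in each comparison. Hes5 stood 12.5-fold lower in Notch1-/- than in Notch2-/- (-3.64 ± 0.41, edgeR adjusted p = 1.27e-05) and 10.2-fold lower in Notch1-/-Notch2-/- than in Notch2-/- (-3.35 ± 0.43, adjusted p = 3.16e-05). Nrarp stood 5.21-fold and 6.08-fold lower in the same 2 comparisons (-2.38 ± 0.32 and -2.60 ± 0.34, adjusted p = 0.000110 and 3.88e-05). Hes1 in Notch1-/- against Notch2-/- (-1.64 ± 0.39, adjusted p = 0.0187) did not pass without Notch1-/- replicate 1 (0.0542) or Notch2-/- replicate 1 (0.0515). Hey1 in that comparison (-0.80 ± 0.19, adjusted p = 0.0211) did not pass without Notch1-/- replicate 1 (0.0630), 3 (0.0523) or 6 (0.0569), or Notch2-/- replicate 3 (0.0628). With only the compared genotypes in the fit, Hes1 (edgeR adjusted p = 0.0952) and Hey1 (0.0849) missed there too. Both also missed without the 3 libraries that hold both Xist and Ddx3y (0.0660 and 0.164). Hes1 missed with the endothelial (-1.51, 0.945) and the mural and fibroblast score (-1.43, 0.109). Hey1 missed with those 2 scores (-1.08, 0.595, and -0.93, 0.0545) and with the microglia and macrophage score (-0.65, 0.182). Nrarp missed with the endothelial score (-2.36, 0.0914).

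Loss of Notch2 on top of Notch1 was read from Notch1-/-Notch2-/- against Notch1-/-, in which 0 of the 7 passed with edgeR and 0.64% of all genes were called. An unadjusted p under 0.05 was reached by 1 of the 7 and by 11.6% of all genes. Hes1 stood lower in Notch1-/-Notch2-/- (-1.25 ± 0.40, adjusted p = 0.196), and fell without Notch1-/- replicate 2 (-1.47, adjusted p = 0.0292). Hes5, Hey1 and Nrarp differed by 0.29 ± 0.40, -0.16 ± 0.19 and -0.22 ± 0.31 (adjusted p = 0.808, 0.781 and 0.816). DESeq2 and limma voom called 0 of the 7 there too. The interaction of the 2 losses, which asks whether losing Notch1 has another effect where Notch2 is also lost, called 0 of the 7 with edgeR at an adjusted p under 0.05, with 0.0768% of all genes called, and 2 at an unadjusted one, with 12.9% of all genes. Hes1 had the largest term, -1.69 ± 0.55 (adjusted p = 0.250), followed by Hey2 at 0.95 ± 0.36 (adjusted p = 0.301). Without Notch1-/- replicate 2, the terms of Hes1 (-1.91, adjusted p = 0.0291), Hey2 (1.29, 0.0273) and Heyl (2.07, 0.0309) passed. limma voom, which gives libraries that stand apart less weight, called Hes1 (-1.48, adjusted p = 0.0422) and Hey2 (1.39, adjusted p = 0.00930), and DESeq2 called none.

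The 7 genes did not move as 1 block from library to library. Over the 26 libraries Hes1 and Nrarp had a Pearson r of 0.93 in log2 CPM, and of 0.89 once each genotype's mean was subtracted. Hes5 had r = 0.86 with Nrarp over libraries but 0.37 within genotypes, and Hey1 had 0.68 and -0.30. Heyl ran against Nrarp within genotypes, with r = -0.72, and Hey2 against Hes1, with r = -0.73. Leaving out Notch1-/- replicate 2, an alternative chosen after its levels were seen, moved the within-genotype r to 0.21 for Hey1 and Nrarp, a change of sign, to 0.78 for Hes1 and Nrarp, to -0.41 for Heyl and Nrarp, to -0.49 for Hey2 and Hes1, and to -0.07, against -0.59 with it, for Heyl and Hes1. These libraries share genotype, depth and normalisation, and the values are descriptions.

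**Figure D5:**
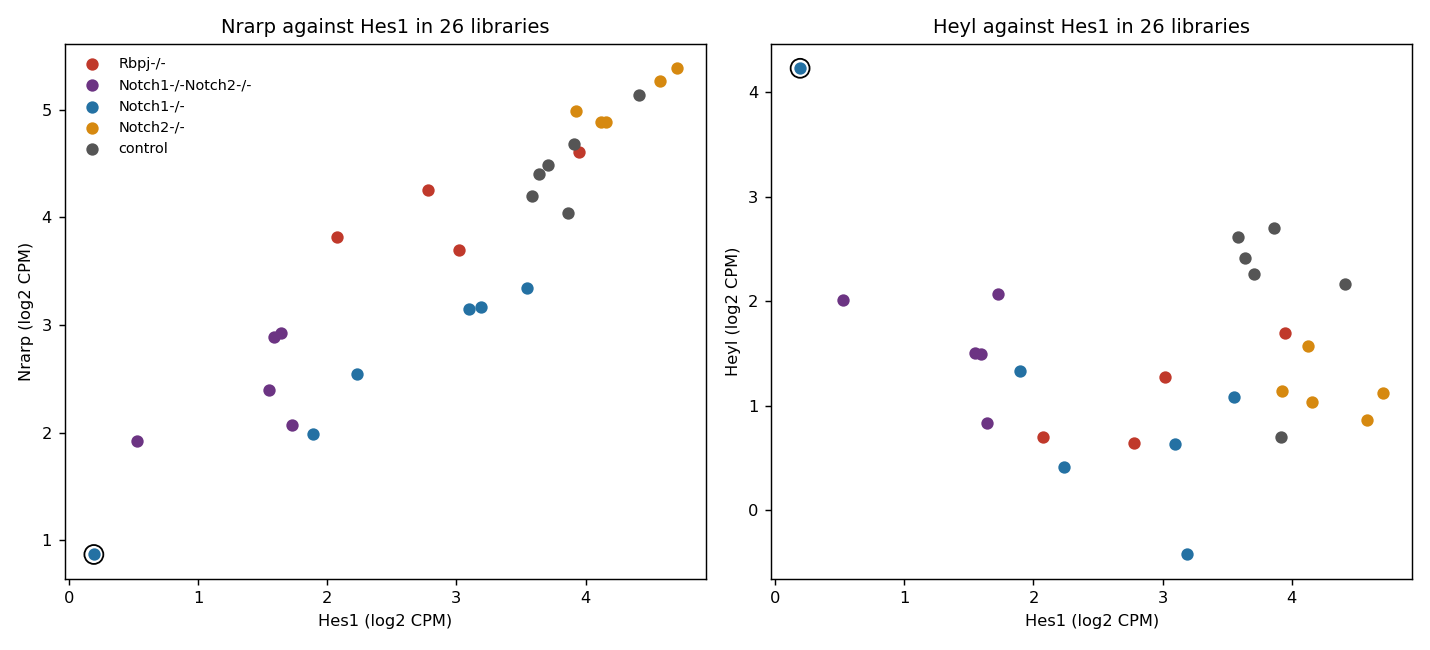
Nrarp against Hes1 (left) and Heyl against Hes1 (right), both axes in log2 CPM, in 26 libraries of 5 genotypes, with a ring around Notch1-/- replicate 2. Nrarp climbs with Hes1 along 1 band, whereas the ringed library alone joins very low Hes1 to very high Heyl.

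Likeness was searched among 12449 other genes whose log2 CPM averaged 1 or more. Those most like each of the 7 over the 26 libraries were Serpine2 for Hes1 (r = 0.939), Gm1943 for Hes5 (0.913), Zfand2b for Hes6 (0.915), 1110032A03Rik for Hey1 (0.905), Serinc5 for Hey2 (0.809), Scamp2 for Heyl (0.847) and Zfp36l2 for Nrarp (0.906). With genotype means subtracted, Dusp6, a phosphatase that acts on ERK, was the most like Hes1 (r = 0.924, and 0.845 without Notch1-/- replicate 2) and was among the 3 most like Nrarp (0.913, and 0.831 without it). For Heyl, Pfn2 came first within genotypes at 0.842, and stood at 0.599 without that library.

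Levels of different genes were compared per kilobase of the deposited gene length. In Notch1-/-Notch2-/- the order was Hes6 (14.3 ± 2.08 CPM per kilobase), Hey2 (10.2 ± 0.730), Hey1 (6.66 ± 1.44), Nrarp (2.18 ± 0.687), Hes1 (1.87 ± 0.517), Heyl (0.681 ± 0.220) and Hes5 (0.493 ± 0.257). In control it was Hey1 (14.8 ± 3.25), Hes6 (14.5 ± 2.23), Hes1 (10.1 ± 2.37), Hey2 (9.61 ± 1.56), Nrarp (8.99 ± 2.61), Hes5 (3.21 ± 1.61) and Heyl (1.05 ± 0.382), SD over libraries. Hes5 and Heyl had the lowest means in both groups.

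The rest of the pathway was described from lists. Of 41 Notch pathway components, 5 rose and 2 fell in Rbpj-/-, 6 rose and 6 fell in Notch1-/-Notch2-/-, 7 rose and 3 fell in Notch1-/- and 1 fell in Notch2-/-, each against control. Over all genes 15.2%, 37.1%, 26.7% and 0.295% were called in these comparisons, so the counts of components in the first 3 were near or below the share of all genes, and the 1 in Notch2-/- was Notch2. Dll4, a ligand best known from vessels, fell to 0.178 CPM in Notch1-/- against 0.924 CPM in control (-2.37 ± 0.40, edgeR adjusted p = 0.000449). Endothelial markers fell in Notch1-/- too. There Dll4 lost its call with the endothelial score (-0.30, adjusted p = 0.939), with which 7 genes in all were called. It was lost as well with the microglia and macrophage (-1.01, 0.499) and the mural and fibroblast score (adjusted p = 0.0532). Dll4 also fell in Rbpj-/- (-1.59 ± 0.44, edgeR adjusted p = 0.0207), a call lost with each score fitted. Which cells these falls came from was not tested. Dll3, a ligand that acts against Notch in its own cell and is made by precursors, rose to 86.2 CPM in Notch1-/-Notch2-/- against 38.9 CPM in control (1.15 ± 0.15, adjusted p = 1.57e-05), to 60.4 CPM in Rbpj-/- (0.63 ± 0.16, adjusted p = 0.0133) and to 53.9 CPM in Notch1-/- (0.47 ± 0.15, adjusted p = 0.0219, and 0.0527 without control replicate 2). With the microglia and macrophage or the endothelial score the Dll3 call stayed in Notch1-/-Notch2-/- and was lost in Rbpj-/- (0.53 and 0.77, adjusted p = 0.342 and 0.176) and Notch1-/- (0.33 and 0.67, adjusted p = 0.577 and 0.875). Between Rbpj-/- and Notch1-/-Notch2-/- 1 component passed, Rbpj itself (-1.03 ± 0.21, adjusted p = 0.0197), which missed without Rbpj-/- replicate 1 (0.0550) or 2 (0.0688) or Notch1-/-Notch2-/- replicate 2 (0.0569) or 4 (0.0571).

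Of 8 tested genes that Hes factors are held to restrain, 3 rose in Rbpj-/-, 4 rose and 1 fell in Notch1-/-Notch2-/-, 3 rose in Notch1-/- and 0 passed in Notch2-/-, beside 15.2%, 37.1%, 26.7% and 0.295% of all genes called in either direction. Dll3 is among them. Sox11, a factor of immature neural cells, rose to 207 CPM in Notch1-/-Notch2-/- and to 183 CPM in Notch1-/-, against 78.0 CPM in control (1.4 ± 0.28 and 1.23 ± 0.27, edgeR adjusted p = 0.000643 and 0.00287). In Rbpj-/- the Sox11 call (0.98 ± 0.29, adjusted p = 0.0278) missed without Rbpj-/- replicate 2 or 4 or control replicate 2, 3 or 6, at 0.0532 to 0.0823. Stmn2, a neuronal gene of low level here, was the member that fell (0.559 CPM in Notch1-/-Notch2-/- and 2.27 CPM in control, -2.01 ± 0.63, adjusted p = 0.0158). Of 17 other genes reported to respond to Notch, 3 rose and 2 fell in Rbpj-/-, 2 rose and 3 fell in Notch1-/-Notch2-/-, 3 rose and 4 fell in Notch1-/- and 0 passed in Notch2-/-, beside the same shares of all genes, with the count in Notch1-/-Notch2-/- below the 37.1% called there and those in Rbpj-/- and Notch1-/- above the 15.2% and 26.7%. Id4, a helix-loop-helix protein that binds no DNA, fell to 0.674 CPM in Rbpj-/-, 0.498 CPM in Notch1-/-Notch2-/- and 0.791 CPM in Notch1-/-, against 3.05 CPM in control (-2.17 ± 0.37, -2.61 ± 0.34 and -1.95 ± 0.31, adjusted p = 0.00135, 1.55e-05 and 0.000276). Myc, a growth regulator that Notch switches on in T cells, rose to 88.6 CPM in Rbpj-/-, 106 CPM in Notch1-/-Notch2-/- and 75.8 CPM in Notch1-/-, against 31.1 CPM in control (1.51 ± 0.23, 1.77 ± 0.22 and 1.29 ± 0.21, adjusted p = 0.000505, 8.65e-06 and 0.000291). With the endothelial score as a covariate the Myc call in Notch1-/-Notch2-/- stayed and the others were lost, with differences of -1.84, -2.15 and -1.44 for Id4 in Rbpj-/-, Notch1-/-Notch2-/- and Notch1-/-, 1.38 and 1.08 for Myc in Rbpj-/- and Notch1-/-, 1.17 and 0.95 for Sox11 in Notch1-/-Notch2-/- and Notch1-/-, and -3.50 for Stmn2. The adjusted p-values of these were 0.0601 to 0.875. With the microglia and macrophage score the calls were lost for Sox11 (1.04 in Notch1-/-Notch2-/- and 0.84 in Notch1-/-), for Stmn2 (-3.55), for Myc in Rbpj-/- (1.23) and Notch1-/- (0.88), and for Id4 in Notch1-/- (-2.43). The differences kept their sign and the larger part of their size, or grew, while the calls were lost.

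Of 11 co-repressors of Rbpj, 1 rose in Rbpj-/-, 2 in Notch1-/-Notch2-/- and 4 in Notch1-/-, with 0 falling in any of them and 0 past the threshold in Notch2-/-. The counts in Rbpj-/- and Notch1-/-Notch2-/- lie below the 15.2% and 37.1% of all genes called, and that in Notch1-/- above the 26.7%. The member in Rbpj-/- was Spen (0.79 ± 0.24, edgeR adjusted p = 0.0319), which missed without Rbpj-/- replicate 2 or 4 or control replicate 2, 3 or 6, at 0.0536 to 0.135. It also missed with the microglia and macrophage (0.66, 0.4225), endothelial (0.66, 0.3898) and mural and fibroblast scores (0.61, 0.121), with only these 2 genotypes in the fit (0.75, 0.1601) and without the 3 libraries with both Xist and Ddx3y (0.72, 0.0791). Of 5 tested Groucho proteins, through which Hes and Hey proteins repress, Tle4 rose in Notch1-/-Notch2-/- (83.3 CPM, against 54.6 CPM in control, 0.61 ± 0.17, edgeR adjusted p = 0.00656), and missed with the endothelial (0.60, adjusted p = 0.268) or the mural and fibroblast score (0.50, 0.0714). Of 6 other genes of the same helix-loop-helix family, Bhlhe40 and Bhlhe41 had enough counts to be tested, and neither passed in any comparison against control.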

How the data were processed

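The authors' deposited table holds raw counts per gene for 26 libraries of sorted GFP-positive glioma cells, with a gene length, made from TruSeq Stranded RNA libraries, per the labels' protocols. The submitters' processing notes name STAR and mm10. Neither the counting tool nor its annotation and strand option is given there. Symbols came from RefSeq (GRCm38.p6), which matched 24374 of 24454 identifiers, and the other 80 held 0.348% of counts.

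Genes were filtered with filterByExpr and scaled by TMM, and the 26 libraries shared 1 model of genotype, tested with edgeR 4.0.16 in R 4.3.3. Each SE is the log2 fold change divided by the root of F. Log2 CPM used a prior count of 2. Genes named were the 7, the 4 targeted genes, up to 4 called genes of each list by adjusted p (otherwise the 2 most expressed), and the 3 genes most like each of the 7, of which those described were picked with their values known. The lists and members were chosen with earlier results of these data known. Replicates differed by more than sampling noise in each of 56 pairs. The procedure was tested on simulated counts. Alternatives used DESeq2 1.42.0 and limma 3.58.1, other filters, covariates, a replicate block and each library left out.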

Additional observations from a re-analysis of the deposited data

Results flagged for a closer look

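Among 35 sets of libraries, 7 genes in each of 5 genotypes, 4 held 1 library far from the others by Dixon's criterion, where chance gives about 1 in 20. Heyl stood at 18.7 CPM in Notch1-/- replicate 2, with the next library at 2.47 CPM. Hes1 stood at 1.39 CPM in Notch1-/-Notch2-/- replicate 4, with the next at 2.87 CPM, and at 21.3 CPM in control replicate 1, with the next at 15.0 CPM. Hes5 stood at 1.19 CPM in Notch1-/-Notch2-/- replicate 3, with the next at 0.568 CPM.

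Over the expressed genes, the mean absolute deviation of a library from its genotype mean was 0.497 on the log2 scale in Notch1-/- replicate 2 and 0.515 in Rbpj-/- replicate 1, and 0.168 to 0.392 in the other 24 libraries.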

How the results depend on the processing

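Counts of the 7 genes called moved as follows. In Rbpj-/- against control the count of 1 became 0 under the stricter filter, which drops Hes5 and Heyl, 0 with the microglia and macrophage or the endothelial score, and 3 with limma voom with quality weights. In Notch1-/-Notch2-/- the 4 became 3 to 4 against control and 3 to 5 against Notch2-/-. In Notch1-/- against control the 4 became 2 and 1 with those 2 scores. In Notch2-/- against control the 0 became 1 with limma voom. In Rbpj-/- against Notch1-/-Notch2-/- the 2 became 1 with the replicate block, 0 with only the compared genotypes and 1 without the 3 libraries that hold both Xist and Ddx3y. In Rbpj-/- against Notch1-/- the 0 became 1 with the microglia and macrophage score and 2 with DESeq2 or limma voom. In Rbpj-/- against Notch2-/- the 1 became 0 under the stricter filter, with only the compared genotypes or without those 3 libraries, 2 with the microglia and macrophage score or DESeq2, and 4 with limma voom. In Notch1-/- against Notch2-/- the 4 became 1 with the endothelial score and 2 with the mural and fibroblast score, with only the compared genotypes or without those 3 libraries. In the interaction the 0 became 2 with limma voom. Leaving out 1 library at a time gave 1 to 2 in Rbpj-/- against control, 3 to 6 in Notch1-/- against control, 0 to 3 in Rbpj-/- against Notch1-/-Notch2-/-, 0 to 2 in Rbpj-/- against Notch1-/-, 1 to 2 in Rbpj-/- against Notch2-/-, 0 to 1 in Notch1-/-Notch2-/- against Notch1-/-, 2 to 4 in Notch1-/- against Notch2-/- and 0 to 3 in the interaction, while Notch1-/-Notch2-/- against control stayed at 4 and against Notch2-/- at 4 to 5. Over all genes, the 2378 called in Rbpj-/- against control became 18 to 3747 under the alternatives, the 5794 in Notch1-/-Notch2-/- 217 to 7364 and the 4174 in Notch1-/- 7 to 6907. The causes were not tested beyond the smaller number of libraries or genes that an alternative itself brings.

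Of 690 log2 differences of the 7 genes under alternatives, 626 kept direction and side of the threshold, 28 lost and 24 gained a call, and 12 turned sign. These were, with the microglia and macrophage score, Heyl in Rbpj-/- against control (1.01), Hey2 (0.35) and Heyl (2.13) in Notch1-/- against control, Hey1 in Rbpj-/- against Notch2-/- (0.09) and Hey1 in the interaction (-0.04). With limma voom they were Hes5 in Notch2-/- against control (-0.01), Hes1 (-0.11) and Heyl (0.05) in Rbpj-/- against Notch1-/-, Heyl in Notch1-/- against Notch2-/- (-0.56) and Hes5 in the interaction (0.19). Without the 3 libraries they were Heyl in Notch1-/- against control (0.01) and Hey1 in Rbpj-/- against Notch2-/- (0.04). Of 1534 values with 1 library left out, 1478 kept both, 21 lost and 13 gained a call, and 22 turned sign. Their ranges were -1.55 to 0.13 for Heyl in Notch1-/- against control, -0.02 to 0.67 for Hes1, -1.29 to 0.42 for Heyl in Rbpj-/- against Notch1-/-, -0.11 to 0.06 for Hey1 in Rbpj-/- against Notch2-/-, -0.07 to 0.45 for Hes5 and -0.30 to 0.05 for Hey1 in Notch1-/-Notch2-/- against Notch1-/-, -0.43 to 1.24 for Heyl in Notch1-/- against Notch2-/- and -0.11 to 0.25 for Hey1 in the interaction. For 48 called values of other pathway genes, 434 values under alternatives kept both, 131 lost their call and 2 turned sign. Those that turned sign were Jag1 (-0.18) and Ccnd1 (-0.14) in Notch1-/- against control with the microglia and macrophage score. With 1 library left out, 1177 kept both, 71 lost their call and 0 turned sign.

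At the median, libraries with the same replicate number deviated together no more than those with other numbers. Over 47 pairs the correlation of deviations was -0.42 to 0.63 with a median of -0.04, against -0.01 for other numbers, and 13 pairs were over 0.1. The spread for other numbers was not computed, and an effect shared by some sets of libraries was not tested. With the number as a replicate block, Hey1 in Rbpj-/- against Notch1-/-Notch2-/- had an adjusted p of 0.0824, Notch2 in Notch2-/- against control 0.0561 and Spen in Rbpj-/- against control 0.0704, all past the threshold without the block. Depth limits Hes5 and Heyl most, with as few as 11 and 22 counts in a library.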
